A study of Papio anubis and Macaca fascicularis and Castor canadensis with 48 samples.

Results

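The genes described are the 7 subunits of respiratory complex I that mammals encode in mitochondrial DNA, mt-Nd1, mt-Nd2, mt-Nd3, mt-Nd4l, mt-Nd4, mt-Nd5 and mt-Nd6. They were taken by their mouse Ensembl gene IDs, ENSMUSG00000064341, ENSMUSG00000064345, ENSMUSG00000064360, ENSMUSG00000065947, ENSMUSG00000064363, ENSMUSG00000064367 and ENSMUSG00000064368 in that order, from a table of 16816 rows, and all 7 are in it. They were chosen by their counts-per-million values (CPM) in each species and organ, with their uneven levels across species already known. Differences in level between species are therefore a description and carry no test. Comparisons of organs within a species were tested, and so was whether kidney against liver differed between baboon and macaque. The genes and tests were chosen with earlier results of these data known, which the p-values do not account for.

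Complex I is the NADH:ubiquinone oxidoreductase of the mitochondrial inner membrane. It passes electrons to ubiquinone and pumps protons. Its mitochondrially encoded subunits build the core of the membrane arm, and nuclear genes encode the rest of the complex. mt-Nd2, mt-Nd4 and mt-Nd5 encode the antiporter-like proton-pumping subunits, mt-Nd1 encodes the subunit at the foot of the quinone channel, and mt-Nd3, mt-Nd6 and mt-Nd4l encode the small subunits that join it to the pumps. All but mt-Nd6 are read from the same strand, as parts of one long precursor. Brain, kidney and liver rely on oxidative phosphorylation.

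The series, whose title concerns mammalian longevity, holds 48 bulk RNA sequencing libraries from 8 species in 15 groups of species and organ. Baboon (Papio anubis) gave 6 brains, 6 kidneys and 6 livers, long-tailed macaque (Macaca fascicularis) 6 cerebella, 5 kidneys and 6 livers, and beaver (Castor canadensis) 2 brains and 2 livers. American black bear (Ursus americanus) gave 1 kidney and 1 liver, white-footed mouse (Peromyscus leucopus) 1 brain and 1 liver, chipmunk (Tamias sibiricus) 2 livers, sugar glider (Petaurus breviceps) 2 livers and tube-nosed bat (Murina leucogaster) 1 liver. Organs are counted here and below as libraries, since the labels do not say that replicates are separate animals. All animals are labelled as male, wild-type adults with no treatment named. The 39 libraries of baboon, macaque and beaver came from a primate research center and the other 9 from an earlier collection, so species and collection cannot be told apart across that line.

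Total counts per library ran from 6.33 M to 26.8 M (M, mega). All 89 pairs of replicates differed beyond sampling noise, with a chi-square of 8.23 to 132 per degree of freedom over rows, and 0 columns were identical. Levels are given in CPM, scaled to the total count of the library. In bulk tissue, fewer cells of a type and less RNA per cell cannot be told apart. The files do not pair the other gene IDs with names, so the labelled organs were not checked against marker genes. The sources used here do not give the way in which reads of 8 species came to carry mouse IDs, or whether the counting used strand. mt-Nd4l overlaps mt-Nd4, and mt-Nd6 lies opposite to its neighbour mt-Nd5, so reads could be split between them. Copies of mitochondrial DNA in the nuclear genome can share reads too, and the values of all 7 genes carry that uncertainty. Transcript lengths were not used here, so levels are compared between libraries and not between genes.

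The 7 genes together held a large part of the counts in most libraries and almost none in beaver. In baboon they held 4.15% ± 1.03 of the counts in brain, 4.84% ± 0.849 in kidney and 1.57% ± 0.254 in liver (SD, n = 6 each). In long-tailed macaque they held 4.74% ± 0.997 in cerebellum (n = 6), 8.87% ± 3.18 in kidney (n = 5) and 3.14% ± 0.791 in liver (n = 6). White-footed mouse stood at 9.58% in brain and 5.14% in liver, bear at 7.12% in kidney and 1.96% in liver. Chipmunk liver averaged 1.85% ± 0.532 and sugar glider liver 2.79% ± 0.218 (SD, n = 2 each), and the tube-nosed bat liver stood at 0.969%. In beaver the share was 0.00417% and 0.000315% in the 2 brains, and 8.34e-05% and 0.000244% in the 2 livers. Those beaver shares are sums of 654 and 48 counts in brain and of 18 and 56 counts in liver, while the tube-nosed bat library, the lowest outside beaver, holds 83703.

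**Figure D1:**
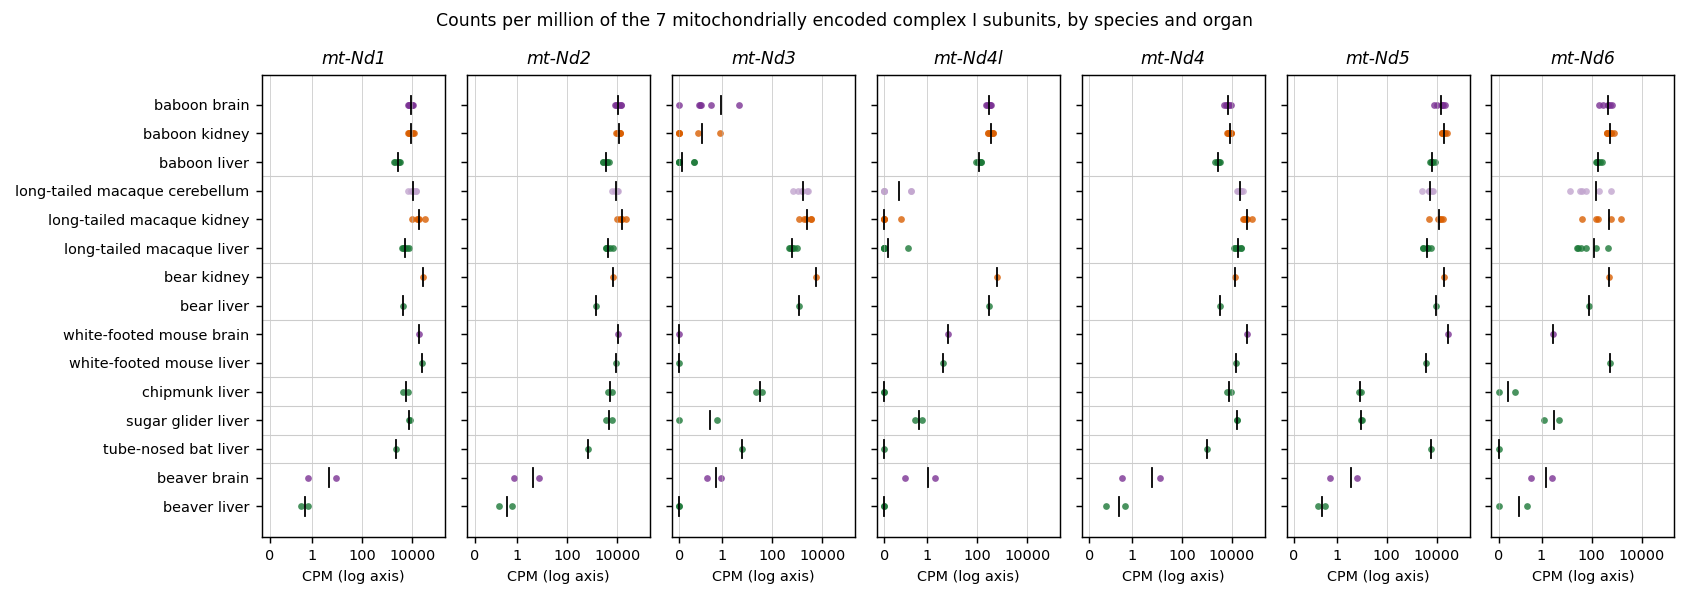
Counts-per-million values (CPM, log axis) of the 7 genes in every library, by species and organ. Libraries at 0 are drawn at the left-hand tick marked 0, as are the lowest group means. Each point is 1 library and each black line a group mean. mt-Nd1, mt-Nd2 and mt-Nd4 are at 100 CPM or more in 13 of 15 groups, all but those of beaver, whereas mt-Nd3 and mt-Nd4l are at that level in 5 groups each.

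mt-Nd1, mt-Nd2 and mt-Nd4 were measured at a high level in every species but beaver. Each of the 3 reached 100 CPM or more in 13 of 15 groups and lay under 10 CPM in the other 2, which are the beaver groups. mt-Nd5 reached 100 CPM in 11 groups, mt-Nd6 in 8, and mt-Nd3 and mt-Nd4l in 5 each. No library was at 0 counts for mt-Nd1, mt-Nd2, mt-Nd4 or mt-Nd5. For mt-Nd3, mt-Nd4l and mt-Nd6, 14, 18 and 3 of the 48 libraries were at 0. In 18 libraries all 7 genes had a count above 0.

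Among the antiporter-like subunits, mt-Nd4 averaged 21134 ± 4268 CPM in macaque cerebellum, 40304 ± 14810 in kidney and 17071 ± 4854 in liver (SD, n = 6, 5 and 6). Baboon averaged 6664 ± 1613 CPM of mt-Nd4 in brain, 8083 ± 1432 in kidney and 2759 ± 430.4 in liver (SD, n = 6 each). The highest baboon library, a kidney at 9488 CPM, lay below the lowest macaque library, a liver at 12516 CPM. White-footed mouse brain held 38581 CPM and liver 14104 CPM of this gene, bear kidney 12862 CPM and liver 3451 CPM. Sugar glider livers averaged 15558 ± 272.8 CPM, chipmunk livers 7825 ± 2082 CPM (SD, n = 2 each) and the tube-nosed bat liver stood at 985.1 CPM. In order of group means, macaque kidney came first and overlapped the white-footed mouse brain that followed it. Beaver came last, with 13 and 0.393 CPM in brain and 0.0926 and 0.522 CPM in liver.

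mt-Nd5, which encodes the pump at the far end of the membrane arm, split the livers differently. It averaged 8.78 ± 1.41 CPM in chipmunk and 9.51 ± 0.455 CPM in sugar glider liver (SD, n = 2 each). In the same libraries mt-Nd4 stood at 6352 CPM or more. Deposited counts of mt-Nd5 were 114 and 218 in the chipmunk livers and 114 and 118 in the sugar glider livers. The other livers outside beaver lay far above: 6517 ± 1159 CPM in baboon and 3950 ± 1130 in macaque (SD, n = 6 each), 8902 in bear, 5826 in tube-nosed bat and 3796 in white-footed mouse. In baboon, mt-Nd5 averaged 14689 ± 4898 CPM in brain and 19039 ± 4112 in kidney (n = 6 each). Macaque cerebellum averaged 5141 ± 1615 CPM (n = 6) and kidney 12109 ± 4589 (n = 5). White-footed mouse brain was highest of the 15 groups at 27797 CPM, followed by bear kidney at 19208 CPM, which lay inside the range of the baboon kidneys. Beaver held 6.63 and 0.525 CPM in brain and 0.185 and 0.348 CPM in liver.

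mt-Nd2 overlapped between the 2 primates in kidney and in liver. Macaque averaged 8641 ± 1588 CPM in cerebellum (n = 6), 14754 ± 4244 in kidney (n = 5) and 4413 ± 1302 in liver (n = 6). Baboon averaged 10939 ± 2421 CPM in brain, 11357 ± 1838 in kidney and 3564 ± 757.9 in liver (SD, n = 6 each). On these library totals the livers had the lowest mean in both species, while with TMM scaling, the normalisation used for the tests, macaque averaged 5828 in cerebellum and 8107 in liver. White-footed mouse brain and liver stood at 10824 and 8952 CPM, and bear kidney and liver at 6693 and 1361 CPM. Chipmunk livers averaged 5099 ± 1335 and sugar glider livers 4794 ± 1699 CPM (SD, n = 2 each), against 660.0 CPM in tube-nosed bat liver. Chipmunk, sugar glider and macaque liver, neighbours in that order, overlapped. Beaver brains held 7.52 and 0.787 CPM and beaver livers 0.185 and 0.610 CPM.

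mt-Nd1, whose product carries the entrance of the quinone channel, was highest by group means in bear kidney at 25901 CPM, followed by white-footed mouse at 23977 CPM in liver and 18576 CPM in brain, each from 1 library. Macaque averaged 10598 ± 2950 CPM in cerebellum (n = 6), 18558 ± 8428 in kidney (n = 5) and 5139 ± 1247 in liver (n = 6). The macaque kidneys ran from 9881 to 32606 CPM, so 1 of them was the highest single library and the 3 groups above them in the order lay within their range. Baboon averaged 8429 ± 1613 CPM in brain, 8979 ± 2103 in kidney and 2555 ± 505.7 in liver (SD, n = 6 each). Kidney, brain and cerebellum of the 2 primates thus overlapped with their neighbours in the order. Sugar glider livers averaged 7528 ± 208.2 CPM and chipmunk livers 5552 ± 1909 (SD, n = 2 each), bear liver held 4317 CPM and tube-nosed bat liver 2210 CPM. The last of these lay inside the range of the baboon livers, 1899 to 3240 CPM. Beaver brains held 8.80 and 0.656 CPM and beaver livers 0.371 and 0.697 CPM.

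mt-Nd3, the small subunit with the loop that moves when the enzyme changes between its active and resting form, was present in macaque and bear and nearly absent from baboon. It averaged 1687 ± 782.7 CPM in macaque cerebellum (n = 6), 2467 ± 1032 in kidney (n = 5) and 649.3 ± 183.2 in liver (n = 6), and held 5463 CPM in bear kidney and 1191 CPM in bear liver. The 6 baboon brains had 2, 2, 0, 2, 72 and 6 deposited counts, the 6 kidneys 0, 0, 0, 2, 16 and 0, and the 6 livers 2, 0, 2, 0, 0 and 0. The lowest macaque library, a liver at 453.7 CPM, lay far above the highest baboon library, a brain at 4.57 CPM. Baboon replicate 5 was the highest in both brain and kidney and was at 0 in liver. White-footed mouse had 0 counts in brain and liver, with floors of 0.948 and 0.468 CPM at 3 read pairs. The exact 95% Poisson intervals reach 1.17 and 0.575 CPM. For both, 2 deposited counts were taken as 1 read pair. Chipmunk livers held 39.9 and 23.3 CPM, tube-nosed bat liver 6.02 CPM, sugar glider livers 0.645 and 0 CPM, beaver brains 0.893 and 0.262 CPM, and both beaver livers 0 counts. The 8 lowest groups in the order of mt-Nd3 overlapped with a neighbour.

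mt-Nd4l, the smallest subunit of the set, showed the opposite arrangement in the primates. Baboon averaged 298.8 ± 50.6 CPM in brain, 366.9 ± 80.6 in kidney and 123.1 ± 22.3 in liver (SD, n = 6 each). Bear held 649.3 CPM in kidney and 295.6 CPM in liver. The macaque libraries held 0 to 4 deposited counts each, with sums of 8 counts over 6 cerebella, 2 over 5 kidneys and 4 over 6 livers. No macaque library came above 0.243 CPM, whereas the lowest baboon library, a liver, held 92.5 CPM. White-footed mouse was low but counted in both organs, with 44 counts or 6.96 CPM in brain and 58 counts or 4.52 CPM in liver. Both chipmunk livers and the tube-nosed bat liver had 0 counts, which allows up to 0.410, 0.269 and 0.694 CPM. Sugar glider livers held 4 and 8 counts, beaver brains 34 and 2 counts, and both beaver livers 0.

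mt-Nd6, the one subunit read from the opposite strand, averaged 428.3 ± 175.4 CPM in baboon brain, 534.0 ± 145.4 in kidney and 186.3 ± 41.7 in liver (SD, n = 6 each). Macaque averaged 153.0 ± 217.3 CPM in cerebellum (n = 6), 485.7 ± 584.7 in kidney (n = 5) and 122.7 ± 160.6 in liver (n = 6). In macaque the SD exceeded the mean in each organ. Bear held 471.2 CPM in kidney and 80.5 CPM in liver. In white-footed mouse the brain library held 18 counts, or 2.85 CPM with an exact 95% Poisson interval of 1.30 to 5.40, and the liver library 7112 counts, or 554.6 CPM with an interval of 536.5 to 573.1. Such intervals cover counting error only. White-footed mouse liver was the highest of the 15 groups and its brain the eleventh, and the liver lay inside the range of the baboon kidneys. Sugar glider livers held 16 and 59 counts, chipmunk livers 0 and 2, the tube-nosed bat liver 0, beaver brains 42 and 6, and beaver livers 0 and 6.

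Near-absence was set first as every library of a group being under 1% of the median group mean of the other species in the same organ, with brain and cerebellum taken as one organ. By that rule 21 of the 105 values, 7 genes in 15 groups, were near absent. Of the 35 combinations of a gene with a species sampled in more than 1 organ, 10 were near absent in some organ and 5 in every organ of the species. Those 5 were mt-Nd1, mt-Nd2, mt-Nd4 and mt-Nd5 in beaver and mt-Nd3 in white-footed mouse. For the last, the medians were only 0.889 CPM in brain and 6.02 CPM in liver. A limit of 1% of these lay under the floors of 0.948 and 0.468 CPM, so only 0 counts could pass and the recurrence says little. Just inside the 1% limit was mt-Nd6 in beaver liver at 0.325% of the median, and just outside were mt-Nd3 in baboon liver at 1.30% and mt-Nd6 in beaver brain at 1.75%. For mt-Nd3, mt-Nd4l and mt-Nd6 the median of the other species was itself low in part of the organs. A limit of 1% of the highest group mean among the other species, chosen after the values were seen, was therefore set beside it.

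By that second rule 33 of the 105 values were near absent, and 10 of the 11 combinations near absent in some organ were so in every organ sampled. All 7 genes recurred in both organs of beaver. mt-Nd3 recurred in brain, kidney and liver of baboon and in brain and liver of white-footed mouse. mt-Nd4l recurred in cerebellum, kidney and liver of macaque. The exception was mt-Nd6 in white-footed mouse, near absent in brain and at its highest group value in liver. Of the species with 1 organ, mt-Nd4l, mt-Nd5 and mt-Nd6 were near absent in chipmunk liver by this rule, mt-Nd3, mt-Nd4l, mt-Nd5 and mt-Nd6 in sugar glider liver, and mt-Nd3, mt-Nd4l and mt-Nd6 in tube-nosed bat liver. In bear 0 of the 7 were near absent. Just inside the limit were mt-Nd6 in sugar glider at 0.886% and mt-Nd4l in beaver brain at 0.725%, and just outside were mt-Nd4l in white-footed mouse at 1.53% in liver and 2.33% in brain. These counts describe values that were known when the genes were chosen, and read assignment across species was not tested as their source.

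The way in which the 7 genes divide their summed counts is free of the scaling between libraries, though it depends on transcript length as well as on abundance. mt-Nd4 took 44.8% ± 2.71 of the sum in macaque cerebellum, 45.6% ± 3.78 in kidney and 54.2% ± 4.03 in liver (SD, n = 6, 5 and 6). In baboon it took 16.2% ± 1.31 in brain, 16.7% ± 1.39 in kidney and 17.6% ± 0.941 in liver (n = 6 each). mt-Nd5 showed the reverse arrangement. It took 10.7% ± 1.90, 13.5% ± 3.21 and 12.8% ± 2.81 in macaque cerebellum, kidney and liver, and 34.8% ± 5.02, 39.4% ± 4.42 and 41.6% ± 3.66 in baboon brain, kidney and liver (SD, n as above). No library of either primate overlapped the other for either gene. For these 2 genes the organs of a primate lay closer to each other in these shares than to any organ of the other primate. In bear, where each organ is 1 library, mt-Nd1 took 36.4% in kidney and 22.0% in liver, and mt-Nd5 27.0% in kidney and 45.4% in liver. In white-footed mouse mt-Nd1 took 19.4% in brain and 46.7% in liver, and mt-Nd5 29.0% in brain and 7.39% in liver.

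**Figure D2:**
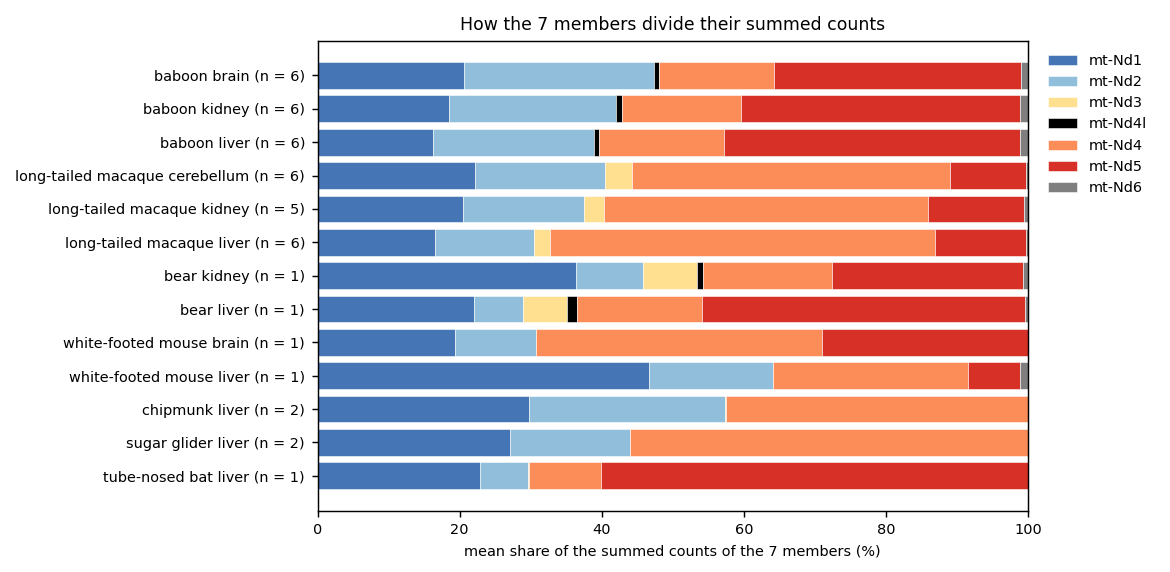
Mean share of each gene in the summed counts of the 7 genes (percent, stacked to 100), for the 13 groups outside beaver, whose sums of 18 to 654 counts are too small to divide. mt-Nd4 takes 44.8% to 54.2% in the macaque groups and 16.2% to 17.6% in the baboon groups.

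Organs were compared within a species with edgeR's quasi-likelihood test on the deposited counts, fitted over all rows with TMM scaling, a normalisation that assumes most rows do not differ. P-values were adjusted over all rows (Benjamini-Hochberg), and adjusted values under 0.05 count as calls. The mean TMM factor was 1.40 in baboon brain, 1.38 in baboon kidney and 0.517 in baboon liver, and 1.49 in macaque cerebellum, 1.29 in macaque kidney and 0.544 in macaque liver. Directions against liver therefore depend on the scaling, and CPM by library totals are given first and the TMM-scaled fold changes after them.

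In baboon kidney, the 6 genes with enough counts to be tested were 2.87- to 3.51-fold as high as in liver on CPM by library totals. mt-Nd5 ran from 15514 CPM over a median of 17846 to 26217 CPM in the 6 kidneys, and from 5171 over 6383 to 8608 CPM in the 6 livers. All 6 kidneys lay above all 6 livers. The same held for each of the 6 tested genes, against 69.5% of all tested rows. Under TMM scaling their log2 fold changes ran from 0.10 for mt-Nd6 to 0.39 ± 0.21 (SE) for mt-Nd1, and 0 of 6 were called, while 35.3% of all rows were called higher and 31.2% lower. The adjusted p-values ran from 0.106 to 0.728. At an unadjusted p under 0.05, 0 genes passed, and DESeq2, the other tool run, called 0. With the replicate number as a block in the edgeR fit, 0 were called too. With library totals alone all 6 were called higher, and the median of all rows then moved to 1.47 on the log2 scale, so the 6 genes, at 1.52 to 1.81, lay near that shift.

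In baboon brain against liver, CPM by library totals put the same 6 genes 2.25- to 3.30-fold as high. mt-Nd1 ran from 6357 CPM over a median of 8422 to 10147 CPM in the 6 brains, and from 1899 over 2625 to 3240 CPM in the 6 livers. The brains lay wholly above the livers for mt-Nd1, mt-Nd2, mt-Nd4l and mt-Nd4, 4 of 6 genes against 64.0% of all rows, and overlapped for mt-Nd5 and mt-Nd6. With TMM scaling the log2 fold changes ran from -0.25 ± 0.24 for mt-Nd5 to 0.28 ± 0.21 for mt-Nd1 (SE). No gene of the 6 was called, while 42.4% of all rows were called higher and 40.0% lower. The count was also 0 at an unadjusted p under 0.05 and with DESeq2. Library totals alone called all 6 higher, at 1.17 to 1.72 on the log2 scale against a shift of 1.49 in the median of all rows, and so turned the direction of mt-Nd4l, mt-Nd4, mt-Nd5 and mt-Nd6.

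Between baboon brain and kidney, whose scaling factors are alike, the 6 genes had log2 fold changes of -0.38 ± 0.24 for mt-Nd5 to -0.08 ± 0.20 for mt-Nd2 (SE). mt-Nd4l ran from 237.4 CPM over 311.3 to 349.0 CPM in brain and from 275.1 over 376.1 to 454.4 CPM in kidney. Brain and kidney overlapped for each of the 6 genes, while 31.6% of all rows lay wholly higher in brain and 30.1% wholly lower. None was called, while 38.2% of all rows were called higher and 39.1% lower, and the count was 0 at an unadjusted p under 0.05 and with DESeq2. mt-Nd3 did not pass the filter on low counts in baboon. Tested without that filter it was called higher in brain than in liver (edgeR, adjusted p = 0.0398), a call that rests on 84 counts over 6 brains, 72 of them in 1 library, and 4 counts over 6 livers.

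In macaque cerebellum, mt-Nd1, mt-Nd2, mt-Nd4 and mt-Nd5 were lower than in kidney. mt-Nd4 ran from 15207 CPM over a median of 21706 to 26978 CPM in the 6 cerebella, and stood at 36625, 65200, 41017, 28105 and 30575 CPM in the 5 kidneys. All cerebella lay below all kidneys for mt-Nd4, the 1 tested gene of 6 for which this held on CPM, against 28.3% of all rows. mt-Nd5 ran from 2549 over 4947 to 7292 CPM in cerebellum and stood at 14149, 16867, 13560, 4723 and 11244 CPM in kidney, where replicate 5 alone fell within the range of the cerebella. The log2 fold changes were -1.45 ± 0.32 for mt-Nd5 (adjusted p = 0.000489), -1.15 ± 0.28 for mt-Nd4 (adjusted p = 0.00105), -0.99 ± 0.24 for mt-Nd2 (adjusted p = 0.00115) and -1.03 ± 0.30 for mt-Nd1 (SE, edgeR, adjusted p = 0.00447). Without a block, 4 of 6 tested genes were thus called lower and 0 higher. Of all rows, 37.8% were called lower and 37.9% higher in that fit.

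mt-Nd3, at -0.76 ± 0.34 (SE, edgeR, adjusted p = 0.0504), and mt-Nd6, at -1.88 ± 1.02 (edgeR, adjusted p = 0.103), did not pass in macaque cerebellum against kidney. The replicate numbers paired the libraries of these 2 organs. With the number as a block, all 6 genes were called lower, among them mt-Nd3 at -0.95 ± 0.20 (edgeR, adjusted p = 0.000679) and mt-Nd6 at -1.78 ± 0.21 (edgeR, adjusted p = 4.89e-06). DESeq2 without a block called 5 lower. The shares of all rows given for this comparison are those of edgeR without a block. Without cerebellum replicate 1, mt-Nd6 moved to -3.06 (edgeR, adjusted p = 0.0125). Kidney replicate 1, the highest macaque kidney for this gene at 1460 CPM, stayed in that fit, so the pair was broken.

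In macaque cerebellum against liver, mt-Nd4 and mt-Nd5 were called lower with TMM scaling, and the calls depended on the scaling and on the replicate block. On CPM by library totals mt-Nd1, mt-Nd2 and mt-Nd3 were 2.06-, 1.96- and 2.60-fold as high in cerebellum, and mt-Nd4, mt-Nd5 and mt-Nd6 were 1.24-, 1.30- and 1.25-fold as high. mt-Nd4 ran from 15207 CPM over 21706 to 26978 CPM in cerebellum and from 12516 over 15218 to 23706 CPM in liver. Cerebella and livers overlapped on that scale for each of the 6 tested genes, while 63.7% of all rows lay wholly higher in cerebellum and 12.2% wholly lower. With TMM scaling mt-Nd4 averaged 14250 ± 3105 in cerebellum and 31351 ± 8639 in liver (SD, n = 6 each) and no longer overlapped, as for 30.7% of all rows on that scale. mt-Nd4 was then called lower in cerebellum, at -1.14 ± 0.27 on the log2 scale (edgeR, adjusted p = 0.000737), and so was mt-Nd5 at -1.07 ± 0.31 (SE, edgeR, adjusted p = 0.00372).

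The other 4 tested genes were not called in macaque cerebellum against liver without a block, with log2 fold changes of -0.07 ± 0.33 for mt-Nd3, -0.40 ± 0.28 for mt-Nd1, -0.48 ± 0.23 for mt-Nd2 and -1.11 ± 0.97 for mt-Nd6 (SE). In all, 2 of 6 genes were called lower and 0 higher, while 39.8% of all rows were called lower and 42.1% higher. Library totals alone called 0 lower and 3 higher, mt-Nd1 at 1.04, mt-Nd2 at 0.97 and mt-Nd3 at 1.38 on the log2 scale. mt-Nd4, mt-Nd5 and mt-Nd6 then stood at 0.31, 0.38 and 0.32 and were not called. The median of all rows stood at 1.51 on that scale, above each of these values. With the replicate number as a block, 5 of 6 genes were called lower in cerebellum. Added to mt-Nd4 and mt-Nd5 were mt-Nd1 at -0.43 ± 0.18 (edgeR, adjusted p = 0.0395), mt-Nd2 at -0.47 ± 0.17 (edgeR, adjusted p = 0.0194) and mt-Nd6 at -1.43 ± 0.20 (SE, edgeR, adjusted p = 1.67e-05), while mt-Nd3 stood at -0.19 ± 0.18. Same-numbered cerebella and livers correlated at 0.0654 to 0.135, while those of unlike number reached 0.0912. Both organs were paired with kidney by number. The shares of all rows given for this comparison are from the fit without a block. Without cerebellum replicate 1 and without a block, mt-Nd6 was called at -2.29 (edgeR, adjusted p = 0.0385). Liver replicate 1, the highest macaque liver for this gene at 437.5 CPM, stayed in that fit.

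In macaque kidney against liver 0 of 6 tested genes were called by edgeR without a block, and 3 were called higher with it. Without the block, 32.7% of all rows were called higher and 30.4% lower. On CPM by library totals the genes were 2.36- to 3.96-fold as high in kidney. mt-Nd1 stood at 16864, 32606, 17683, 9881 and 15754 CPM in the 5 kidneys and ran from 3736 CPM over 4986 to 7011 CPM in the 6 livers. Kidneys lay wholly above livers for mt-Nd1, mt-Nd2, mt-Nd3 and mt-Nd4, 4 of 6 genes against 65.0% of all rows. With TMM scaling the log2 fold changes ran from 0.01 ± 0.28 for mt-Nd4 to 0.77 ± 1.00 for mt-Nd6 (SE). At an unadjusted p under 0.05, 2 genes passed, and DESeq2 called the same number higher, mt-Nd1 and mt-Nd2.

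The replicate numbers paired the macaque kidneys and livers too, and the block called 3 genes higher in kidney. These were mt-Nd1 at 0.56 ± 0.19 (edgeR, adjusted p = 0.0223), mt-Nd2 at 0.51 ± 0.18 (edgeR, adjusted p = 0.0233) and mt-Nd3 at 0.76 ± 0.19 (SE, edgeR, adjusted p = 0.0044). Leaving out kidney replicate 1, kidney replicate 5, liver replicate 1 or liver replicate 4 called 1 or 2 genes higher. Library totals alone called 5, with the median of all rows at 1.27 on the log2 scale.

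**Figure D3:**
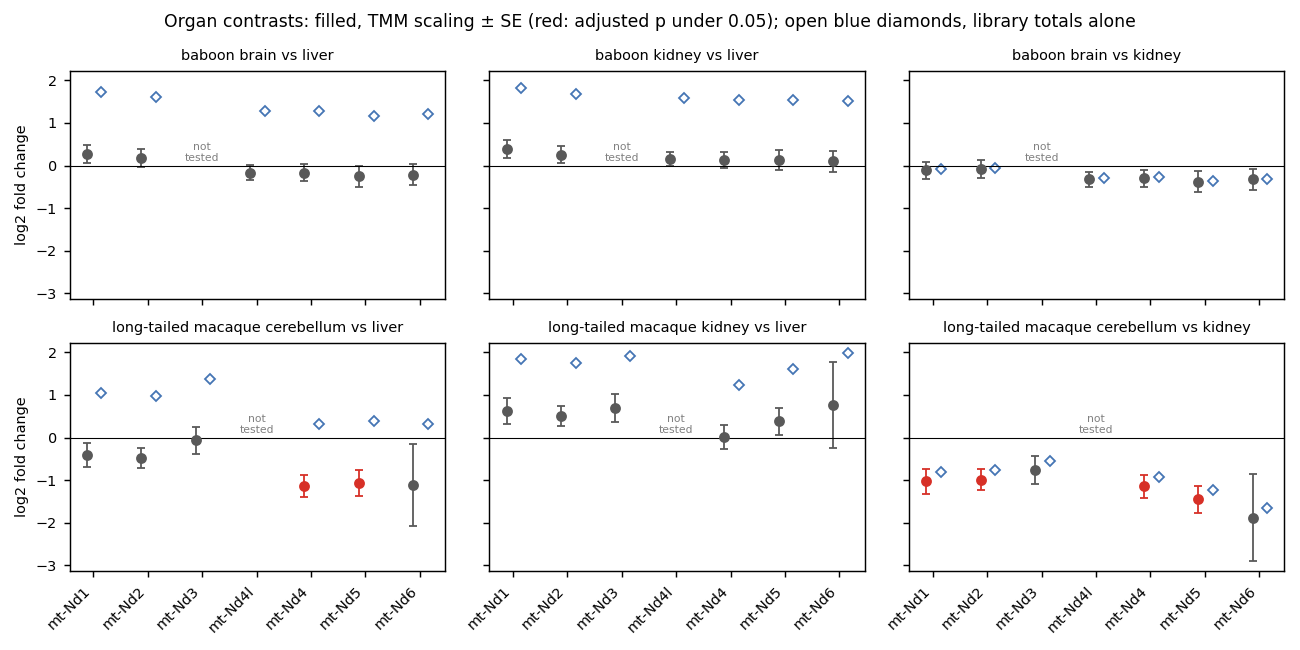
Log2 fold change of each tested gene between organs of baboon (above) and long-tailed macaque (below). Filled circles are TMM-scaled values with SE from the fit without a block, red where the adjusted p was under 0.05. Open diamonds use library totals alone. The red points are mt-Nd4 and mt-Nd5 in macaque cerebellum against liver and mt-Nd1, mt-Nd2, mt-Nd4 and mt-Nd5 in cerebellum against kidney.

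Whether the difference between kidney and liver itself differed between baboon and macaque was tested as an interaction, baboon minus macaque, in the 23 kidney and liver libraries. Of the 5 genes counted in both species, 0 were called, while 5.21% of all rows were called higher and 4.80% lower. mt-Nd1 had an interaction of -0.21 ± 0.37 on the log2 scale, mt-Nd2 -0.23 ± 0.32, mt-Nd4 0.15 ± 0.34, mt-Nd5 -0.23 ± 0.36 and mt-Nd6 -0.63 ± 0.96 (SE). Each of these was smaller than its own error, so no difference between the species was detectable at this precision. At an unadjusted p under 0.05, and with DESeq2, the count was 0. mt-Nd3 and mt-Nd4l passed the filter through 1 species only and were at or near 0 in the other, so the interaction says nothing of them.

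In beaver, mt-Nd1 and mt-Nd2 alone passed the filter on low counts. mt-Nd1 had 138 and 10 counts in the 2 brains and 8 and 16 in the 2 livers, and mt-Nd2 118 and 12 in brain and 4 and 14 in liver. Brain replicate 1 stood apart from the other 3 libraries for both. The log2 fold change of brain against liver was 1.77 ± 1.25 for mt-Nd1 (edgeR, adjusted p = 0.264) and 1.99 ± 1.24 for mt-Nd2 (SE, edgeR, adjusted p = 0.211). So 0 of 2 were called, while 35.2% of all rows were called higher and 29.3% lower, and the count was 0 at an unadjusted p under 0.05 and with DESeq2. Without brain replicate 2, 1 gene was called higher; it was one that then passed the filter, and neither mt-Nd1 nor mt-Nd2 was called.

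Bear and white-footed mouse have 1 library per organ, so their organ ratios have no replicate check. Beside them stand all rows with at least 20 counts over the pair, 11777 in bear and 11331 in white-footed mouse. On CPM, bear kidney held more than bear liver of each of the 7 genes, as it did of 60.3% of all rows, from 2.16-fold for mt-Nd5, with a 95% counting interval of 2.14 to 2.18, to 6.00-fold for mt-Nd1, with an interval of 5.93 to 6.07. The median row had a log2 ratio of 0.46 on that scale. With TMM scaling the 7 genes stood at 1.55-fold for mt-Nd5 to 4.31-fold for mt-Nd1, and 49.5% of all rows were higher in kidney.

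White-footed mouse brain against liver was uneven, and its directions depended on the scaling. On CPM 4 of the 6 genes counted were higher in brain, against 67.1% of all rows, and the median row had a log2 ratio of 1.31. mt-Nd5 was 7.32-fold, mt-Nd4 2.74-fold and mt-Nd2 1.21-fold as high in brain, while mt-Nd1 stood at 0.775 and mt-Nd6 at 0.00513 of its liver level. The counting interval of that mt-Nd6 ratio ran from 0.00234 to 0.00975. mt-Nd4l had a ratio of 1.54 with an interval of 0.842 to 2.77, which includes equality. With TMM scaling mt-Nd5 stood at 3.68-fold and mt-Nd4 at 1.37-fold, while mt-Nd2 turned to 0.607, mt-Nd4l to 0.772, and mt-Nd1 and mt-Nd6 stood at 0.389 and 0.00258 of the liver level. On that scale 2 of 6 genes were higher in brain, against 54.3% of all rows.

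mt-Nd6 varied among macaque libraries of the same organ by far more than the other genes. In cerebellum, replicates 1 to 6 stood at 577.2, 192.3, 43.1, 33.9, 13.6 and 58.0 CPM. The kidneys of replicates 1, 2, 3, 5 and 6 stood at 1460, 599.8, 147.1, 40.5 and 181.2 CPM, and the 6 livers at 437.5, 146.1, 37.0, 26.1, 29.7 and 59.7 CPM. In each organ replicate 1 was highest, followed by 2, 6 and 3, and replicates 4 and 5 were lowest where both were present. The highest library was 42.5-fold the lowest in cerebellum, 36.0-fold in kidney and 16.8-fold in liver. The largest such ratio for any other gene tested in macaque was 4.06, for mt-Nd3 in cerebellum.

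Among rows with a mean of at least 20 CPM, the SD of log2 CPM of mt-Nd6 exceeded that of 99.9% of rows in macaque cerebellum and kidney and 99.4% in liver. In baboon its highest library was 3.58-fold the lowest in brain, 1.89-fold in kidney and 1.80-fold in liver. Over the 6 same-numbered macaque cerebella and livers, log2 CPM of mt-Nd6 correlated at a Pearson r of 0.964 (exact permutation p = 0.00417) and a Spearman rho of 0.943 (exact permutation p = 0.0167). Both had an adjusted p of 0.1 over the 24 relations computed for the 7 genes, so neither passed the correction. Without the 2 cerebella farthest from the median, r was 0.671 over 4. mt-Nd3 ran the other way in part: replicate 1, highest for mt-Nd6, was lowest for mt-Nd3 in each organ, at 667.3 CPM in cerebellum, 1224 CPM in kidney and 453.7 CPM in liver. That observation was made after the values were seen and was not tested.

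**Figure D4:**
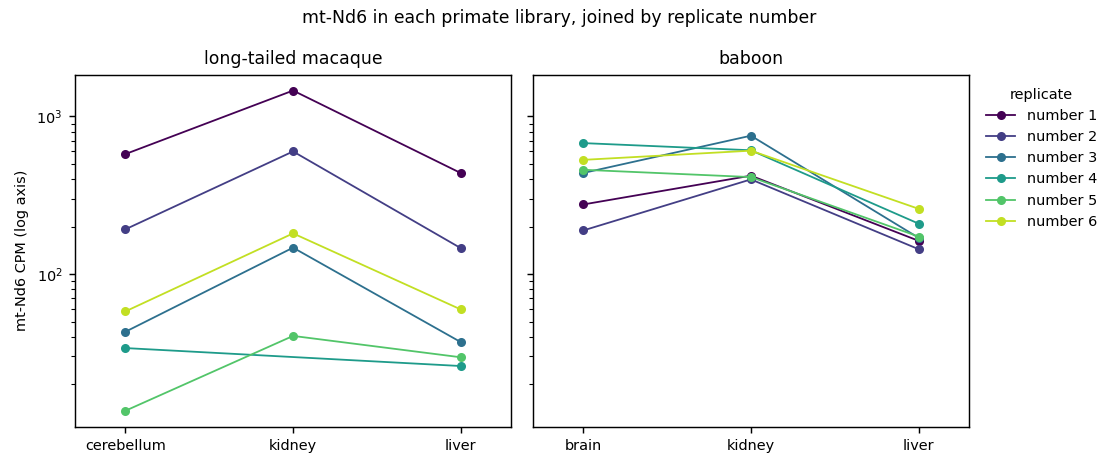
mt-Nd6 (CPM, log axis) in each library of long-tailed macaque and baboon, with lines joining libraries that carry the same replicate number. The macaque lines run from 1460 CPM in the kidney of replicate 1 down to 13.6 CPM in the cerebellum of replicate 5 and keep nearly the same order in each organ; macaque kidney has no replicate 4.

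mt-Nd1, mt-Nd2 and mt-Nd4 were most like each other of all rows. Over the 15 groups, the mean of log2(CPM + 1) correlated at 0.982 for mt-Nd1 with mt-Nd2, 0.982 for mt-Nd2 with mt-Nd4 and 0.981 for mt-Nd1 with mt-Nd4. For each of these 3 genes the other 2 were the closest of the 7185 rows with a mean of at least 20 CPM. The third closest was ENSMUSG00000046756 for all 3, at 0.967, 0.959 and 0.947, and its name is not given in the files. The closest rows to mt-Nd5, mt-Nd6, mt-Nd3 and mt-Nd4l reached 0.864, 0.788, 0.703 and 0.688, and none of their 3 closest rows was another of the 7 genes. The 15 groups share species and depth, and the beaver groups set much of the range, so these correlations are given as a description.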

How the data were processed

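Bulk RNA was sequenced from 48 organ samples. The authors deposited raw counts per gene in 1 table of 16816 rows, named by mouse Ensembl gene IDs, with no normalisation. STAR and featureCounts are named per the submitters' processing notes, and the sources used here give no versions, genome builds or handling of reads from 8 species. Of the counts from 1 to 20, 94.3% to 99.4% per library were even, so 2 deposited counts were taken as 1 read pair for intervals and floors. All columns matched a sample, and 0 other columns hold values of a sample. CPM is the count over the library total.

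Organ contrasts were fitted on all rows with edgeR 4.0.16 in R 4.3.3 (TMM, filterByExpr, two-sided quasi-likelihood F test, Benjamini-Hochberg adjustment over all rows, threshold 0.05), over all organs of a species. Pairs of 1 library each have ratios on CPM and TMM-scaled CPM and no test. In the fits the SE was taken from the F statistic. DESeq2 1.42.0, upper-quartile scaling, library totals, no filter, scaling without the 7 genes, a replicate block and leaving out each library were alternatives. The code was tested on simulated data. Python 3.11.15 with pandas 2.3.3 and scipy 1.17.1 made the other values. The labels do not say that replicates are separate animals, so p-values measure the spread between these samples, which may be technical.

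Same-numbered libraries deviated together across rows in macaque cerebellum and kidney (r 0.130 to 0.191 over 5 pairs) and in macaque kidney and liver (r 0.199 to 0.343 over 5 pairs). In those comparisons the numbers were taken to pair the samples, from these correlations and not from the labels. Libraries of unlike number reached r 0.101 and 0.24 there. Baboon kidneys and livers also matched by number (r 0.0986 to 0.367 over 6 pairs, at most 0.061 for unlike numbers). The main fits of both species had no block. In baboon kidney against liver the block called 0 genes, with mt-Nd1 at 0.39 ± 0.18 (SE, edgeR, adjusted p = 0.0785). All 7 genes are named, with the 3 rows most like each by correlation. The genes, lists and tests were chosen with earlier results of these data known. Lists of nuclear complex I and other mitochondrial genes are symbols that the files do not pair with IDs, so they were not used.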

Additional observations from a re-analysis of the deposited data

Results flagged for a closer look

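In 6 of the 42 groups of 4 or more libraries examined, 1 per gene and organ in the primates, 1 library stood apart from the rest by more than Dixon's 95% limit for the gap over the range. mt-Nd6 stood apart in macaque replicate 1, at 577.2 CPM in cerebellum and 437.5 CPM in liver, from 9428 and 11727 counts. mt-Nd3 stood apart in baboon replicate 5, at 4.565 CPM in brain and 0.8601 CPM in kidney, from 72 and 16 counts. mt-Nd4l stood apart in 1 macaque kidney (replicate 5) at 0.09511 CPM and 1 macaque liver (replicate 6) at 0.1739 CPM, which are 2 and 4 counts in groups otherwise at 0, where any count in 1 library stands apart by construction. Chance flags about 1 in 20 of the groups examined where values lie well above 0. That rate does not hold for the sparse counts of mt-Nd3 in baboon or mt-Nd4l in macaque.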

How the results depend on the processing

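Scaling by library totals alone changed the comparisons with liver most. It called 6 genes higher in baboon brain, 6 in baboon kidney, 3 in macaque cerebellum and 5 in macaque kidney, and 0 lower in macaque cerebellum. Against baboon liver it turned mt-Nd4l, mt-Nd4, mt-Nd5 and mt-Nd6 in brain to 1.28, 1.27, 1.17 and 1.20 on the log2 scale. Against macaque liver it turned mt-Nd1, mt-Nd2, mt-Nd3, mt-Nd4 and mt-Nd5 in cerebellum to 1.04, 0.97, 1.38, 0.31 and 0.38, and mt-Nd6, called under neither scaling, to 0.32. Of the rows then called, and not of all rows tested, 81.4% and 90.8% were higher in baboon brain and kidney. The same share of calls was 80.1% and 89.9% in macaque cerebellum and kidney, 85.2% in beaver brain and 72.5% in the interaction. Upper-quartile scaling called 1 gene higher in baboon kidney against liver, 1 lower in baboon brain against kidney and 3 higher in macaque kidney against liver. DESeq2 called 2 higher in the last of these. Without the filter on low counts 1 gene, mt-Nd3, was called higher in baboon brain against liver. With near-absence set against the highest other species, 33 values in place of 21 were near absent, and 10 in place of 5 recurred. The cause of these changes was not tested.

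With the replicate block, 3 genes were called higher in macaque kidney against liver, 6 lower in macaque cerebellum against kidney and 5 lower in macaque cerebellum against liver. In the last, same-numbered libraries correlated at 0.0654 to 0.135 and 5 of 6 pairs matched best with their own number. Libraries of unlike number reached 0.0912 there. The block changed no other count of called genes in baboon, beaver or the interaction. Shares of all rows called are given for the main fits only. For the block, DESeq2 and upper-quartile scaling they are not given here.

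Leaving out each library in turn gave 0 to 1 gene higher in baboon kidney against liver (1, mt-Nd1, without kidney replicate 4 or liver replicate 3) and 0 to 1 lower in baboon brain against kidney (1 without brain replicate 4 or kidney replicate 4). It gave 0 to 2 higher in macaque kidney against liver, 4 to 5 lower in macaque cerebellum against kidney, 2 to 3 lower in cerebellum against liver and 0 to 1 higher in beaver brain. All rows called in beaver ran from 5519 to 8529, where a lone library was assumed to vary like the other group. Of the fold changes of single genes, 780 kept their side of the threshold when a library was left out and 19 came to pass it. Depth limits what can be said of mt-Nd3 and mt-Nd4l where counts are at or near 0.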
